A study of Mus musculus with 29 samples.

Results

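A group of 10 genes was followed through digits of mice with a nerve injury or a sham operation. These mark Schwann cells, the glia of peripheral nerve, or bind them to axons: Sox10, S100b, Cdh19, Scn7a, Sorcs1, Foxd3, L1cam, Ncam1, Egr2 and Pou3f1. They were chosen by name as genes of Schwann cell identity and adhesion, with earlier results of these data known, as were the gene lists used below. Counts of called genes set beside the share of all genes are therefore descriptions and not tests. All 10 were listed and passed the filter on low counts in both deposited tables, 10 of 24411 gene symbols in the first and 10 of 55487 Ensembl identifiers in the second. Poly(A) RNA of mouse left hindlimb digits, cut distal to the metacarpophalangeal joint and freed of the nail, was sequenced in 29 libraries of 10 groups. Before collection the animals had either spared nerve injury (SNI), which cuts the common peroneal and tibial divisions of the sciatic nerve, or a sham operation that left the nerve whole. Amputation through the third phalanx followed after 5 days.

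The first table is a time course of amputated digits and samples days 7, 14 and 21 after it. Sham-operated animals gave n = 3, n = 3 and n = 2 libraries at these times, and animals with SNI gave n = 3 each. The second table holds SNI digits only, amputated at day 7 (n = 3) and day 14 (n = 3) and not amputated at day 7 (n = 3) and day 14 (n = 3), and so has no group with an intact nerve. For the unamputated digits, the time and tissue labels still speak of days after amputation and of a regenerate digit, and the treatment label was followed. The labels call the samples biological replicates, and strain, sex and age were not given there. SNI spares the sural branch of the sciatic nerve, so the operated foot keeps some sensory fibres. All levels below are CPM, counts scaled to a common library size, after a TMM factor that allows for a few genes taking up much of a library.

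Sox10 is the transcription factor that neural crest cells need to become Schwann cells and that the lineage keeps through life. It works with Pou3f1 (Oct6), which marks cells about to myelinate, to switch on Egr2 (Krox20), and Egr2 and Sox10 together drive the genes of myelin. After an axon is cut, Schwann cells downstream of the cut lose contact with it, switch off myelin genes and enter a repair state that re-uses parts of an earlier, less mature programme. Foxd3 belongs to that earlier neural crest stage. S100b, a calcium-binding protein, and Cdh19, a cadherin, are common markers of the lineage. L1cam and Ncam1 are cell adhesion molecules shared by axons and non-myelinating Schwann cells. Scn7a is a sodium channel relative found in Schwann cells and sensory neurons, and Sorcs1 is a sorting receptor of the Vps10 family. None of the 10 is found in Schwann cells alone: Sox10 is also made by melanocytes and sweat gland cells, S100b by fat cells and chondrocytes, and Pou3f1 and Egr2 by cells of epidermis and hair follicle. In whole digits, fewer cells of a type and less RNA per cell cannot be told apart.

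Promoter windows are shown for Foxd3, Scn7a and Sorcs1, which are 3 of the 4 genes that later differed between amputated and unamputated SNI digits. RefSeq gave windows for 6 of the 10 genes, 11 in all, on build GRCm38.p6, and each window holds the 250 bases before an annotated start, read 5′ to 3′ on the gene's strand. The motifs searched on both strands were ACAAAG and ACAATG for SOX factors and GCGNGGGCG for EGR factors, and matches are in capitals. Foxd3 lies on the plus strand (chr4:99656049-99656298), Scn7a on the minus strand (chr2:66784911-66785160) and Sorcs1 on the minus strand (chr19:50678647-50678896).
Foxd3: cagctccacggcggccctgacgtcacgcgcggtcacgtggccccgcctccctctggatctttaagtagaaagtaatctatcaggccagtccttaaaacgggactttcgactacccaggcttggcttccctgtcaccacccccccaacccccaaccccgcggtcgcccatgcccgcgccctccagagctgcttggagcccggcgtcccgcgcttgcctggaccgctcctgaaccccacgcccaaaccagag
Scn7a: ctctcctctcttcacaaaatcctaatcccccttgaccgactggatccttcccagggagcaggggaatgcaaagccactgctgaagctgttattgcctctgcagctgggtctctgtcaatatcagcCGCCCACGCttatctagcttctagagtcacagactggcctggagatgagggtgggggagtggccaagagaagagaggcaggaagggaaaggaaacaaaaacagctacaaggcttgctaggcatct
Sorcs1: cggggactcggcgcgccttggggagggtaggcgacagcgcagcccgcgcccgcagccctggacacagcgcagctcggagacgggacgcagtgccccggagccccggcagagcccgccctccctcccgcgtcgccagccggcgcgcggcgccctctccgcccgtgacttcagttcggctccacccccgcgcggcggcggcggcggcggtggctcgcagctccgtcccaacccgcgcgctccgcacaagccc
The Scn7a window held 1 match to the EGR motif, on the opposite strand, and the other 10 member windows held none. Neither SOX motif was in any of the 11 windows. Some windows of Egr2 share bases with each other, as do those of L1cam, so the 11 are not separate promoters. Of 32851 promoter windows of this length, 16.5% held ACAAAG, 10.7% held ACAATG and 4.7% held GCGNGGGCG. Such a match is a stretch of letters and not a measured binding site.

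Levels were compared between genes per kilobase of exon (CPM per kb), in the 6 unamputated SNI libraries. Egr2 was highest with a median of 8.08 CPM per kb, followed by S100b with 6.93, Pou3f1 with 6.20 and L1cam with 5.66, and the ranges of neighbours in this order overlapped. Sox10 was at 3.24 CPM per kb (2.87 to 3.58), below L1cam and above Scn7a at 1.48 (1.18 to 1.69) without overlap. Cdh19 at 0.909, Ncam1 at 0.837 and Foxd3 at 0.548 overlapped from one to the next, and Sorcs1 was lowest at 0.158 (0.131 to 0.185). Per length, Egr2, Pou3f1 and Sox10 were thus above the adhesion genes Cdh19 and Ncam1 in all 6 libraries, and Foxd3 was not.

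Total counts were between 35654192 and 56809440 per library in the time course and between 31274245 and 43315729 in the second table. Of the 17 time course libraries, 2 stood apart with a TMM factor under 0.8, sham day 21 replicate 1 (0.633) and SNI day 7 replicate 2 (0.761), while the second table ran from 0.954 to 1.04. Sham day 21 replicate 1 held the lowest sum of 6 differentiated keratinocyte markers, 22921 CPM against a sham median of 60388 CPM. It also held the highest sham sum of 5 adipocyte markers, 449.6 CPM against a sham median of 75.4 CPM. SNI day 7 replicate 2 had the highest adipocyte sum of the time course, 639.7 CPM, and the highest sum of 5 neutrophil markers, 13470 CPM against an SNI median of 70.4 CPM. Their part in the results was not tested, and values without 1 or both of them are given for some results. Values without sham day 21 replicate 2 leave replicate 1, of low TMM factor, as the only sham library of that day.

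**Figure D1:**
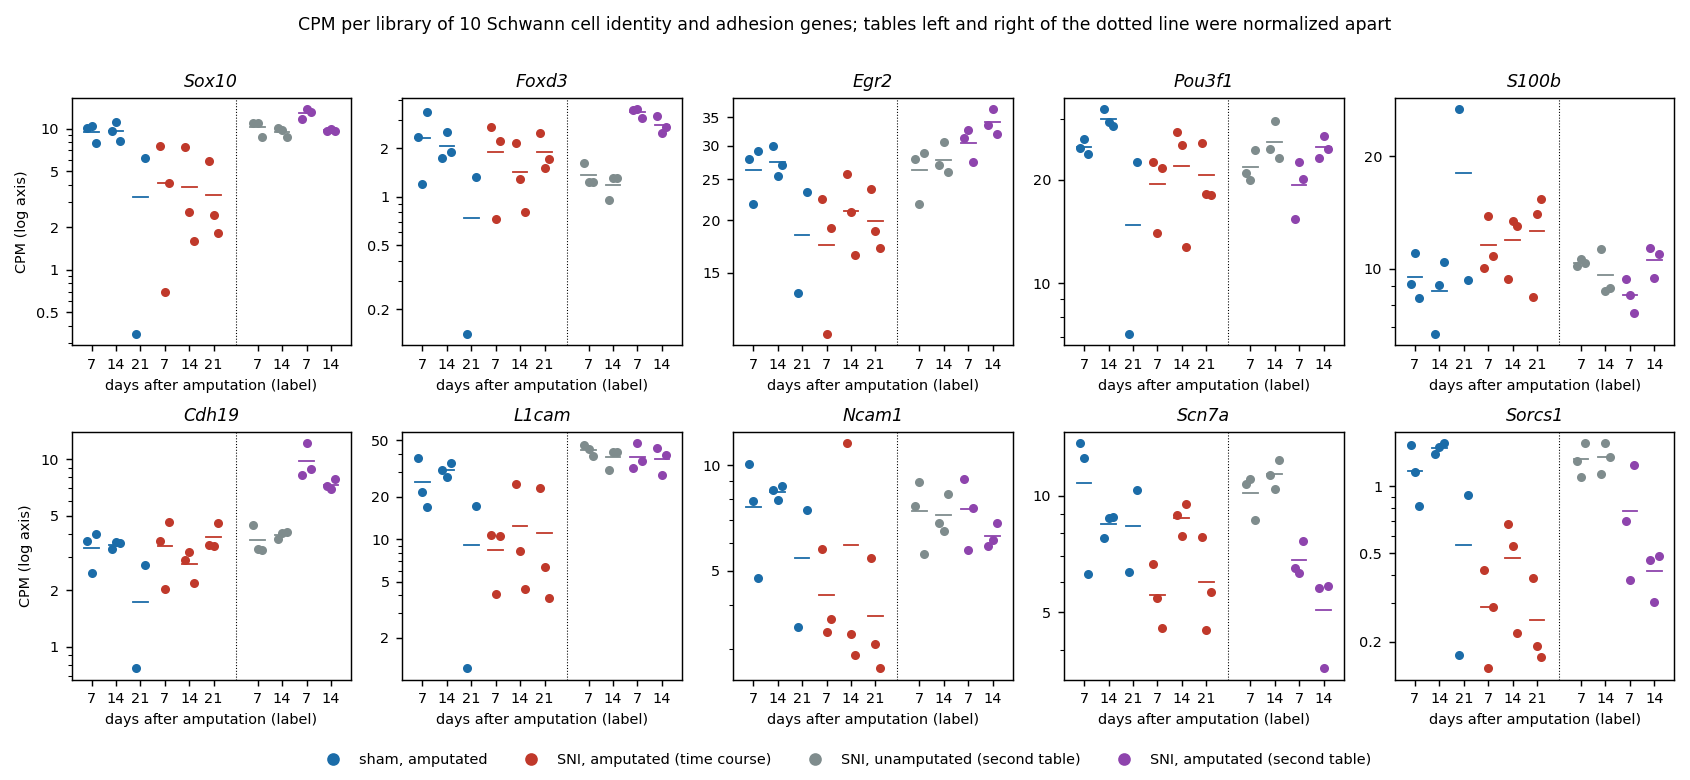
Level of each of the 10 genes in every library (CPM, log axis), by the day in the label, with 1 point per library and a bar at the group mean. The sham day 21 group has 2 points, and one of them, replicate 1, is the lowest of the time course for 5 of the 10 genes; points left and right of the dotted line come from tables normalized apart.

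The time course asks which of these genes hold, rise or fall when the nerve is cut. No gene of the 10 passed the test between SNI and sham, averaged over the 3 days or at any 1 day, by edgeR's quasi-likelihood test with Benjamini-Hochberg adjustment (adjusted p under 0.05). Over all 16084 genes tested the share called was 0% in the average and at each day. Other tools differed: limma voom with sample quality weights called 6 of the 10 at day 7 and 7 at day 14, among 7749 and 8737 genes of all, and 0 in the average and at day 21. DESeq2 called 1 of the 10 in the average, Sorcs1, and 0 at each day. At an unadjusted p under 0.05, 2 of the 10 passed in the average, beside 14% of all genes. The same 2, Scn7a and Sorcs1, passed at day 7 beside 13.6%, 1 passed at day 14 beside 5.93% (Sorcs1) and 1 at day 21 beside 2.2% (Cdh19). A gene is described as holding where it was not called and the 95% interval of its log2 fold change lay within -1 to 1, that is, where a change of 2-fold or more either way fell outside the interval. In the average 5 of the 10 held, Egr2, Pou3f1, S100b, Cdh19 and Scn7a, beside 68.5% of all genes. Of these the interval of Scn7a, -0.85 to -0.08, lay within the limits but below 0. The other 5 had wider intervals, of which that of Sorcs1 lay below 0. By single days fewer held, 1 at day 7 (Cdh19) beside 32.9% of all genes, 2 at day 14 (Egr2 and Scn7a) beside 37.5% and 1 at day 21 (Egr2) beside 36.6%. The median log2 fold change of the 10 genes was -0.37, with 7 negative, and that of all genes was 0.01.

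Sox10 was measured at 10.1, 10.5 and 7.91 CPM in the sham libraries of day 7, at 9.57, 11.1 and 8.22 CPM in those of day 14, and at 0.349 and 6.21 CPM at day 21. In SNI digits it was at 7.55, 0.700 and 4.10 CPM at day 7, at 7.44, 2.57 and 1.59 CPM at day 14, and at 5.91, 2.44 and 1.83 CPM at day 21. All SNI libraries of days 7 and 14 lay below all sham libraries of the same day, and at day 21 the 2 sham libraries lay on either side of the SNI values. The SNI libraries themselves spread over 10.8-fold. The log2 fold change in the average was -0.83 ± 0.53 (SE; 95% interval -1.96 to 0.30; adjusted p = 0.453, edgeR). It was -0.94 without the 2 libraries of low TMM factor (adjusted p = 0.0792) and 0.26 without sham day 21 replicate 2, which leaves replicate 1 alone as the sham of that day.

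L1cam was spread over the libraries in much the same way. It was at 37.5, 21.7 and 17.0 CPM in sham digits at day 7, at 30.8, 27.7 and 34.6 CPM at day 14, and at 1.22 and 17.1 CPM at day 21. The SNI values were 10.8, 4.08 and 10.5 CPM at day 7, 24.6, 8.21 and 4.45 CPM at day 14, and 23.2, 6.38 and 3.81 CPM at day 21. Again every SNI library of days 7 and 14 was below the sham libraries of its day, and day 21 overlapped. The average log2 fold change was -0.88 ± 0.51 (SE; 95% interval -1.98 to 0.22; adjusted p = 0.421, edgeR), and it was 0.09 without sham day 21 replicate 2. Ncam1, the other adhesion molecule of this pair, ranged from 3.45 to 10.1 CPM in sham (median 7.94, n = 8) and from 2.64 to 11.6 CPM in SNI (median 3.35, n = 9). Its fold change was -0.63 ± 0.30 (SE), with an interval from -1.28 to 0.02, and it was -0.41 without sham day 21 replicate 2.

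Sorcs1 had the largest average log2 fold change of the 10 between SNI and sham, without passing the test. It was at 1.54, 1.16 and 0.818 CPM in sham digits at day 7, at 1.40, 1.51 and 1.56 CPM at day 14 and at 0.174 and 0.915 CPM at day 21. In SNI digits it was at 0.420, 0.152 and 0.288 CPM at day 7, at 0.675, 0.540 and 0.218 CPM at day 14, and at 0.389, 0.192 and 0.171 CPM at day 21. Apart from sham day 21 replicate 1, all sham libraries were above all SNI libraries of the time course. The log2 fold change was -1.59 ± 0.34 (SE; 95% interval -2.32 to -0.86), with -1.81 without sham day 21 replicate 1 and -1.03 without replicate 2. Its unadjusted p was 0.000382 and its adjusted p 0.288 by edgeR's quasi-likelihood test, while DESeq2 gave -1.60 with an adjusted p of 0.0021. The reads behind these values were few, 5 to 79 per library. DESeq2 called 163 genes in this contrast, and Sorcs1 was the 1 gene of the 10 among them.

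**Figure D2:**
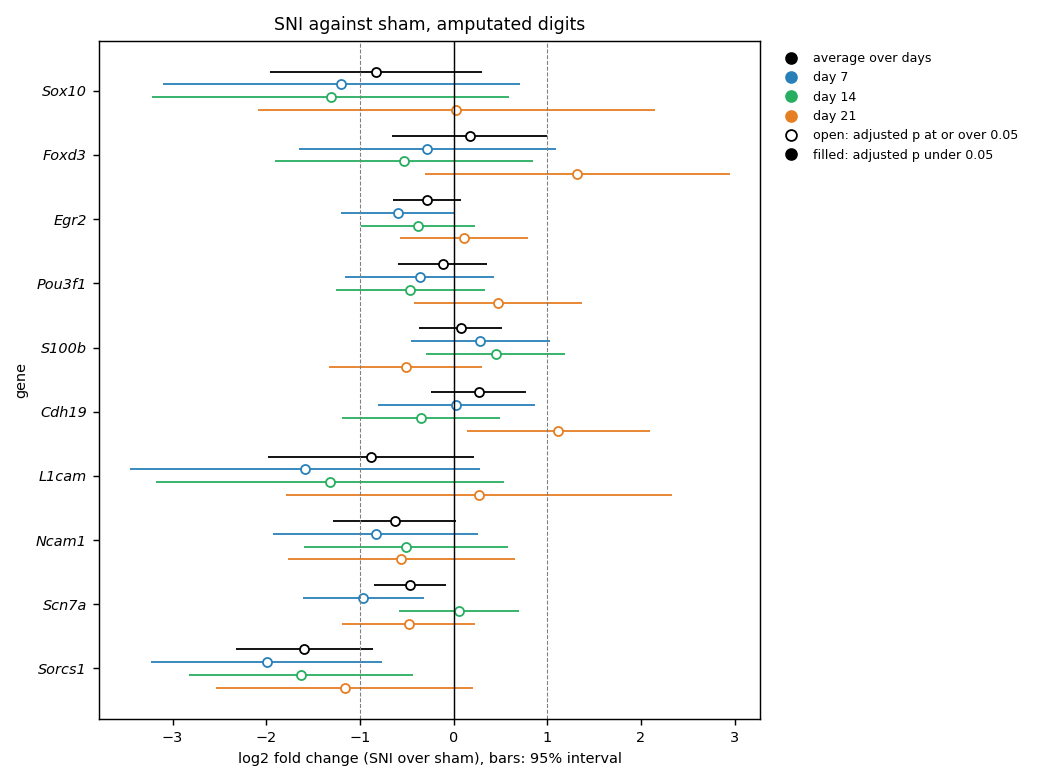
log2 fold change of each gene in SNI over sham digits (x axis), averaged over days and at each day, with 95% intervals; open points did not pass. Every point is open, and the Sorcs1 interval of the average lies from -2.32 to -0.86, clear of 0.

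The 5 genes that held in the average did so at quite different levels. Egr2 ranged from 13.5 to 29.9 CPM in sham (median 26.2, n = 8) and from 10.7 to 25.7 CPM in SNI (median 19.2, n = 9). Its log2 fold change was -0.29 ± 0.17 (SE), or -0.39 without sham day 21 replicate 1 and -0.14 without replicate 2. Pou3f1 was at 7.12 to 32.1 CPM in sham (median 25.6) and 12.8 to 27.7 CPM in SNI (median 21.7). The difference was -0.12 ± 0.22 (SE), or -0.31 without sham day 21 replicate 1 and 0.24 without replicate 2. For both regulators of myelination the interval of the average excludes a 2-fold change, which is not so at every day. At day 7 the intervals were -1.20 to 0.02 for Egr2 and -1.15 to 0.43 for Pou3f1, and at day 14 that of Pou3f1 was -1.25 to 0.33. The Pou3f1 libraries of SNI and sham digits did not overlap at these 2 days. Cdh19 was at 0.767 to 3.96 CPM in sham (median 3.45) and 2.04 to 4.61 CPM in SNI (median 3.45), with a fold change of 0.27 ± 0.24 (SE), which ran from 0.07 without sham day 21 replicate 1 to 0.67 without replicate 2. Scn7a was at 6.27 to 13.7 CPM in sham (median 8.80) and 4.49 to 9.56 CPM in SNI (median 6.65), with -0.46 ± 0.18 (SE; unadjusted p = 0.0219; adjusted p = 0.337, edgeR).

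S100b went the other way from Sox10 from library to library. Sham libraries had 9.09, 11.0 and 8.35 CPM at day 7, 6.68, 9.02 and 10.4 CPM at day 14, and 26.7 and 9.32 CPM at day 21. SNI libraries had 10.0, 13.8 and 10.8 CPM at day 7, 9.37, 13.4 and 13.0 CPM at day 14, and 8.42, 14.0 and 15.4 CPM at day 21. The groups overlapped at every day, and the highest value of all belonged to sham day 21 replicate 1, the library with the lowest Sox10. S100b differed by 0.07 ± 0.21 (SE) in the average, and by 0.35 without the 2 libraries of low TMM factor. The adipocyte marker sum, given above, was high in the same 2 libraries, and none of its 5 genes was at 0 in any library.

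Foxd3 could not be placed. It was at 2.37, 1.20 and 3.36 CPM in sham digits at day 7, at 1.75, 2.54 and 1.90 CPM at day 14, and at 0.140 and 1.33 CPM at day 21. SNI digits had 2.72, 0.730 and 2.22 CPM at day 7, 2.17, 1.29 and 0.807 CPM at day 14, and 2.51, 1.51 and 1.71 CPM at day 21. The groups overlapped at days 7 and 14, and at day 21 the SNI libraries were above both sham libraries. Its average log2 fold change of 0.17 ± 0.39 (SE) became -0.41 over days 7 and 14 only, a setting added after seeing the data, and that of Cdh19 became -0.16.

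Day by day, the SNI libraries lay wholly below the sham libraries for 4 of the 10 genes at day 7 (Sox10, Pou3f1, L1cam and Sorcs1), beside 23.8% of all genes. At day 14 they lay below for 5 (the same 4 and Cdh19), beside 12.2% of all genes. At day 21 they lay above the 2 sham libraries for Foxd3 and Cdh19, beside 4.36% of all genes. Of the 10, 0 were separated in the same direction at every day (0.137% of all genes higher, 0.112% lower). The interaction of SNI with day was called for 0 of the 10 by edgeR. None of them was below 0.05 before adjustment, beside 3.66% of all genes. Without sham day 21 replicate 2, which leaves replicate 1 alone in its group, it was called for 4 of the 10 and for 3384 genes in all.

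Markers of other cells differed between SNI and sham digits as well, with 0 genes called in any of these lists by edgeR. The 6 differentiated keratinocyte markers summed to 37132 to 42087 CPM in SNI and 53270 to 62030 CPM in sham digits at day 7, and to 34406 to 54431 CPM and 59716 to 66291 CPM at day 14. Their sums thus lay below sham without overlap at the same 2 days as Sox10, L1cam, Pou3f1 and Sorcs1. In the average all 6 were negative (median log2 fold change -0.45), as were all 8 sweat gland markers (-0.43). All 5 macrophage markers (0.53), all 5 neutrophil markers (2.21), 4 of 5 adipocyte markers (0.89) and 5 of 6 melanocyte markers (0.15) were positive. At day 7 the neutrophil median was 7.35, where SNI replicate 2 summed to 13470 CPM. At day 21 all 5 neutrophil markers were negative (-1.71), as were 3 of 5 macrophage (-0.16) and 3 of 5 adipocyte markers (-0.14). There 7 of 8 sweat gland markers were negative (-0.65), 5 of 6 melanocyte markers positive (0.48), and keratinocyte markers split 3 to 3 (0.02). The part of these cells in the differences of the 10 genes was not tested.

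Days 14 and 21 were each compared with day 7 within sham and within SNI digits, and day 21 was not compared with day 14. From day 7 to day 14, 0 of the 10 genes were called in sham or in SNI digits by edgeR's quasi-likelihood test. At an unadjusted p under 0.05 the counts were 0 in sham (1.96% of all genes) and 1 in SNI (3.03%). Between day 7 and day 21 none was called in sham, with 1 at an unadjusted p under 0.05 beside 20.3% of all genes, and none in SNI, with 0 beside 3.87%. Leaving out sham day 21 replicate 2 raised the count for sham day 21 against day 7 to 7 of the 10, and to 8331 genes in all.

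Ratios to Sox10 within a library do not depend on scaling, and were tested for 5 genes by an exact permutation of libraries within days (two-sided, 4000 arrangements, smallest possible p 0.0005, adjusted over the 5 ratios). The log2 ratio of Pou3f1 to Sox10 was 1.91 ± 0.98 in sham (SD, n = 8) and 2.75 ± 0.84 in SNI (SD, n = 9), a mean difference over days of 0.71 (exact permutation p = 0.1405, adjusted 0.7025). For Egr2 the difference was 0.49 (exact permutation p = 0.3955, adjusted 0.895), and for Mbp, myelin basic protein, -0.38 (exact permutation p = 0.696, adjusted 0.895). The ratios of L1cam and Ncam1 to Sox10 differed by -0.03 and 0.08, each with an adjusted p of 0.895 by the exact permutation test. None of the 5 passed. Without sham day 21 replicate 1 both Egr2, at 1.04, and Pou3f1, at 1.11, passed with an adjusted p of 0.0219 by the same exact permutation. The difference for Mbp was 0.25 without that library, -1.003 without sham day 21 replicate 2 and 0.026 without both libraries of low TMM factor, so its direction rests on single libraries. Without both libraries of low TMM factor Egr2 and Pou3f1 were at 0.82 (adjusted p = 0.0406, exact permutation) and 0.86 (adjusted p = 0.0188).

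Some members moved with Sox10 over the 17 time course libraries, and the values in the second table differed. As a description over libraries that mix both groups, L1cam had a Pearson r of 0.947 with Sox10 on log2 CPM and a Spearman rho of 0.880, and r was 0.923 without sham day 21 replicate 1 and SNI day 7 replicate 2, the 2 farthest from the median of Sox10. S100b had r = -0.881 and rho = -0.733, and r = -0.809 without those libraries. Cdh19 had r = 0.665 and rho = 0.363, and r fell to 0.0337 without them, so that relation rests on those 2 libraries. In the 12 libraries of the second table, where Sox10 varied over 1.57-fold, rho was 0.112 for L1cam, -0.455 for S100b and 0.566 for Cdh19. In the time course rho was 0.909 for Sorcs1, 0.841 for Pou3f1, 0.826 for Egr2, 0.804 for Ncam1, 0.598 for Foxd3 and 0.520 for Scn7a. In the second table it was -0.322, -0.608, -0.00699, 0.273, 0.455 and -0.0769 in the same order. How many of all genes moved as closely with Sox10 was not counted. The genes most like Sox10 over the time course were Phldb3, Adcy8, Rabgef1, Bcl7a and Cx3cl1, with rho from 0.968 to 0.975 (17 libraries). In the second table they were Pik3r1, Fcamr, Prickle2, Ulk2 and Gpr182, with rho from 0.902 to 0.937 (12 libraries), so no gene was on both lists of 5.

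**Figure D3:**
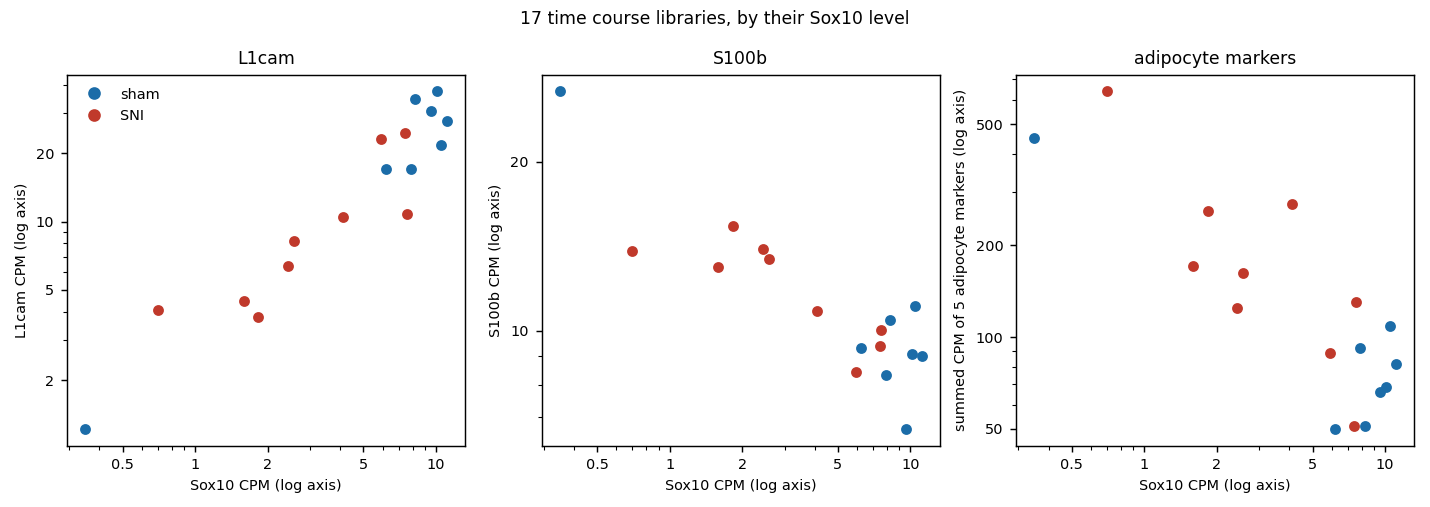
L1cam, S100b and the summed level of 5 adipocyte markers against Sox10 in the 17 time course libraries (CPM, log axes), 1 point per library. L1cam is high where Sox10 is high (r = 0.947) and S100b is high where Sox10 is low (r = -0.881), and the point farthest left, at 0.349 CPM of Sox10, is sham day 21 replicate 1.

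Other genes of the lineage gave no call between SNI and sham either. Of 17 regulators of the Schwann lineage 15 had a negative fold change and 0 passed, with a median of -0.34. Beside 14% of all genes, 2 of the 17 passed at an unadjusted p under 0.05. Of these Sox2, a factor of immature Schwann cells, was at 0.68 ± 0.28 (SE) and the receptor gene Notch1 at -1.10 ± 0.46 (SE), both uncalled. Among 13 further adhesion genes of Schwann cells and axons 11 were negative and 0 passed, with a median of -0.23. Cadm2, a cell adhesion molecule of axons, was at -1.20 ± 0.26 (SE; adjusted p = 0.306, edgeR) and Mag, the myelin-associated glycoprotein, at -1.71 ± 0.43 (SE; adjusted p = 0.337). The 15 myelin genes that Sox10 and Egr2 drive had a median of -1.15, with 14 negative and 0 called in the average. Of these 15, 10 were at an unadjusted p under 0.05, beside the same 14% of all genes. Mbp ranked first among them by p at -1.15 ± 0.21 (SE; adjusted p = 0.288, edgeR). Of 10 repair genes 7 were positive and 0 passed, with a median of 0.15. By p the first was Gap43, a growth-associated protein, at 1.16 ± 0.23 (SE; adjusted p = 0.288, edgeR). Next came Shh, which went the other way at -0.89 ± 0.43 (SE; adjusted p = 0.365, edgeR), and Ngfr at 0.69 ± 0.37 (SE; adjusted p = 0.396, edgeR). The myelin median lay below the fold changes of Sox10, Egr2 and Pou3f1. That difference was tested only for Mbp against Sox10, above, where it did not pass and changed direction with the libraries left out.

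The second table asks what amputation adds in digits whose nerve was already cut, and here 4 of the 10 genes passed in the average over days 7 and 14. Foxd3 and Cdh19 rose with amputation and Scn7a and Sorcs1 fell, by edgeR's quasi-likelihood test with Benjamini-Hochberg adjustment. The count of 4 in 10 stands beside 11.8% of all 17475 genes called, the 2 that rose beside 5.71% and the 2 that fell beside 6.08%. The other 6, Sox10, Egr2, Pou3f1, S100b, L1cam and Ncam1, held, beside 75.1% of all genes. At both days 2 of the 10 were higher without overlap of libraries, beside 4.29% of all genes, and 1 was lower, beside 3.42%. The median log2 fold change of the 10 was -0.08 and that of all genes 0.01. For unamputated digits the day label counts from an amputation that was not made, so their time since the nerve cut is not known. A difference in that time cannot be told apart from amputation here.

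Foxd3 was at 3.48, 3.51 and 3.07 CPM in amputated digits at day 7 and at 3.18, 2.50 and 2.72 CPM at day 14. Without amputation it was at 1.61, 1.24 and 1.24 CPM at day 7 and at 0.953, 1.31 and 1.30 CPM at day 14. Each amputated library was above each unamputated library, at both days. The log2 fold change was 1.26 ± 0.15 (SE; 95% interval 0.94 to 1.58; adjusted p = 0.000752, edgeR) in the average. It was 1.29 at day 7 (adjusted p = 0.00951) and 1.23 at day 14 (adjusted p = 0.0156).

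Cdh19 behaved alike in sign. Amputated digits had 8.20, 12.1 and 8.88 CPM at day 7 and 7.20, 6.89 and 7.82 CPM at day 14. Unamputated digits had 4.47, 3.32 and 3.29 CPM at day 7 and 3.75, 4.03 and 4.08 CPM at day 14. The 2 sets of libraries did not overlap, and the highest value was amputated day 7 replicate 2. The rise was 1.14 ± 0.13 on the log2 scale (SE; 95% interval 0.86 to 1.42; adjusted p = 0.000514, edgeR) in the average. By day it was 1.40 at day 7 (adjusted p = 0.00317) and 0.88 at day 14 (adjusted p = 0.0363).

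Scn7a went down. It was at 6.51, 6.33 and 7.63 CPM in amputated digits at day 7 and at 5.77, 3.58 and 5.84 CPM at day 14, against 10.7, 11.1 and 8.67 CPM without amputation at day 7 and 11.3, 10.4 and 12.4 CPM at day 14. All 6 amputated libraries were below all 6 unamputated ones. The log2 fold change was -0.87 ± 0.13 (SE; 95% interval -1.15 to -0.59; adjusted p = 0.00281, edgeR) in the average. Scn7a passed at day 14 with -1.16 (adjusted p = 0.0132) and not at day 7 with -0.57 (adjusted p = 0.162).

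Sorcs1 was the other gene that fell. Amputated digits had 0.696, 0.381 and 1.25 CPM at day 7 and 0.467, 0.301 and 0.487 CPM at day 14, and unamputated digits had 1.30, 1.11 and 1.56 CPM at day 7 and 1.14, 1.56 and 1.36 CPM at day 14. At day 7 amputated replicate 3 reached into the unamputated range, and at day 14 the groups were apart. These values rest on 10 to 55 reads per library. The average log2 fold change was -1.23 ± 0.27 (SE; 95% interval -1.81 to -0.64; adjusted p = 0.0167, edgeR), with -0.77 at day 7 (adjusted p = 0.354) and -1.68 at day 14 (adjusted p = 0.0447).

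**Figure D4:**
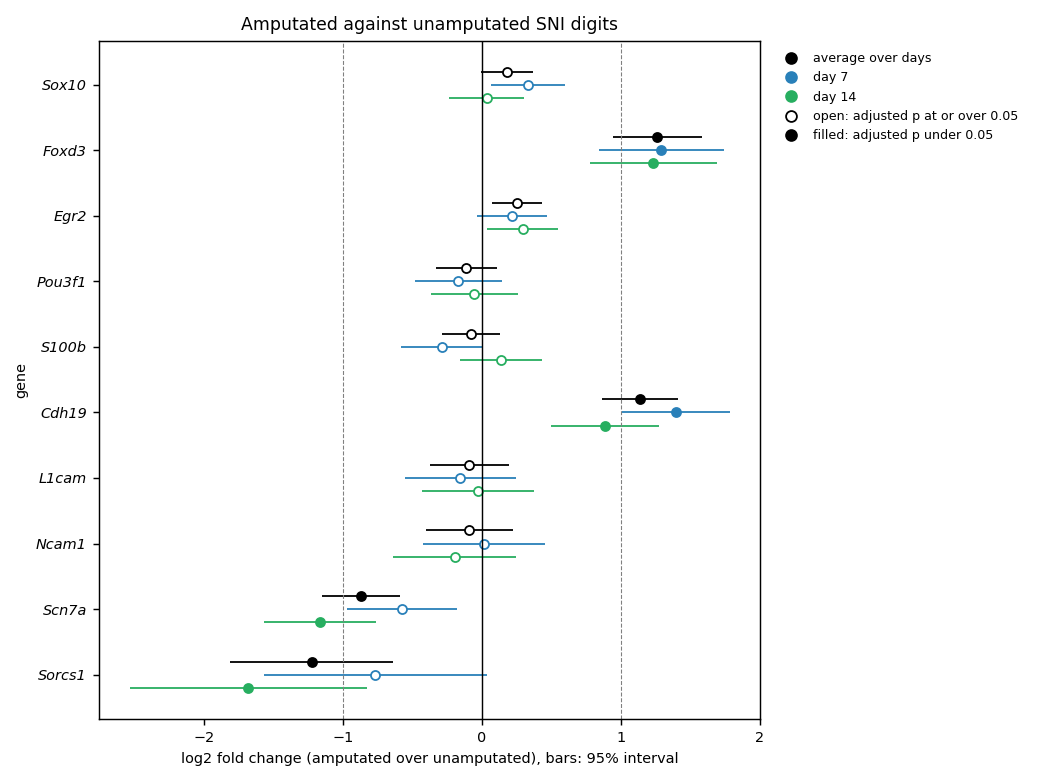
log2 fold change of each gene in amputated over unamputated SNI digits (x axis), averaged over days and at each day, with 95% intervals; filled points passed. Foxd3 and Cdh19 lie at 1.26 and 1.14 in the average, Scn7a and Sorcs1 at -0.87 and -1.23, and the other genes within 0.26 of 0.

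By day, 2 of the 10 genes passed at day 7 (1.35% of all genes called) and 4 at day 14 (2.75%). At an unadjusted p under 0.05 the counts were 4 beside 15.1% and 5 beside 24%, and in the average 5 beside 29.5%. The average kept 4 or 5 calls whichever library was left out, while the genes called in all ran from 736 to 2428. The day 14 count was less firm, for these genes and for all genes, of which 31 to 995 were called. Of the 10, 0 were called without unamputated day 14 replicate 3. The count was 1 without amputated day 14 replicate 3, unamputated day 14 replicate 1 or unamputated day 14 replicate 2. It was 2 without unamputated day 7 replicate 2 or amputated day 14 replicate 2. The amputation effect did not differ between days by the interaction test for any of the 10, 0 of all genes passed it, and 2 of the 10 were at an unadjusted p under 0.05 beside 6.25% of all genes.

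The genes that held in this table did so closely. Sox10 was at 11.7, 13.7 and 13.1 CPM in amputated digits at day 7 and 9.67, 9.87 and 9.67 CPM at day 14. In unamputated digits it was at 10.9, 10.9 and 8.76 CPM at day 7 and 10.1, 9.71 and 8.78 CPM at day 14. The amputated libraries were above the unamputated ones at day 7 and overlapped them at day 14, and the average log2 fold change was 0.18 ± 0.09 (SE; adjusted p = 0.179, edgeR). Egr2 was at 27.4 to 36.6 CPM in amputated and 21.8 to 30.5 CPM in unamputated digits, 0.26 ± 0.08 (SE; adjusted p = 0.0639, edgeR), and passed with DESeq2 (adjusted p = 0.0367) and with limma voom (adjusted p = 0.032). L1cam was at 28.3 to 47.7 CPM and 30.7 to 46.3 CPM, and Ncam1 at 5.74 to 9.16 CPM and 5.58 to 8.98 CPM, with average fold changes of -0.09 each. Pou3f1 ranged from 15.4 to 26.9 CPM with amputation and from 20.0 to 29.7 CPM without it, and S100b from 7.60 to 11.4 CPM and from 8.72 to 11.3 CPM, with -0.11 and -0.08.

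From day 7 to day 14 none of the 10 genes passed by edgeR's quasi-likelihood test in either arm of the second table. All 10 held in unamputated digits, as did 78.3% of all genes, and 0.303% of all genes were called. There 0 of the 10 were at an unadjusted p under 0.05, beside 4.97% of all genes. In amputated digits 6 of the 10 were at an unadjusted p under 0.05, beside 13.3% of all genes, and 0.607% of all genes were called. Sox10 had the smallest p of these, with -0.40 ± 0.12 (SE; adjusted p = 0.195, edgeR), and DESeq2 called it at the very edge of the threshold.

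Myelin and repair genes moved apart in the same digits. Over all genes tested, 5.71% rose and 6.08% fell with amputation, and these shares stand beside each count below. Of the 15 myelin genes driven by Sox10 and Egr2 10 fell with amputation and 0 rose, with a median log2 fold change of -1.42. Pmp22, a membrane protein of compact myelin, fell by 0.78 ± 0.07 on the log2 scale (SE; adjusted p = 0.000170, edgeR), Mbp by 1.44 ± 0.16 and Prx, periaxin, by 1.83 ± 0.24. Of the 10 repair genes 5 rose and 0 fell, with a median of 0.78. Ngfr, the low-affinity neurotrophin receptor, rose by 2.51 ± 0.14 (SE), Gap43 by 3.34 ± 0.20 and Runx2 by 1.76 ± 0.25. Runx2 is also a regulator of osteoblasts, whose 4 markers were all positive with a median of 1.19, and the part of bone cells in its rise was not tested. Among the 17 lineage regulators 1 rose, Sox2 with 2.51 ± 0.18 (SE; adjusted p = 2.14e-05, edgeR), and 1 fell, Lgi4, a secreted ligand of myelination, with -0.35 ± 0.10. The 13 other adhesion genes split into 3 that rose and 3 that fell, with Cadm1 at 0.51 ± 0.07 (SE), Cadm4 at -0.42 ± 0.08 and Mag at -2.67 ± 0.33.

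**Figure D5:**
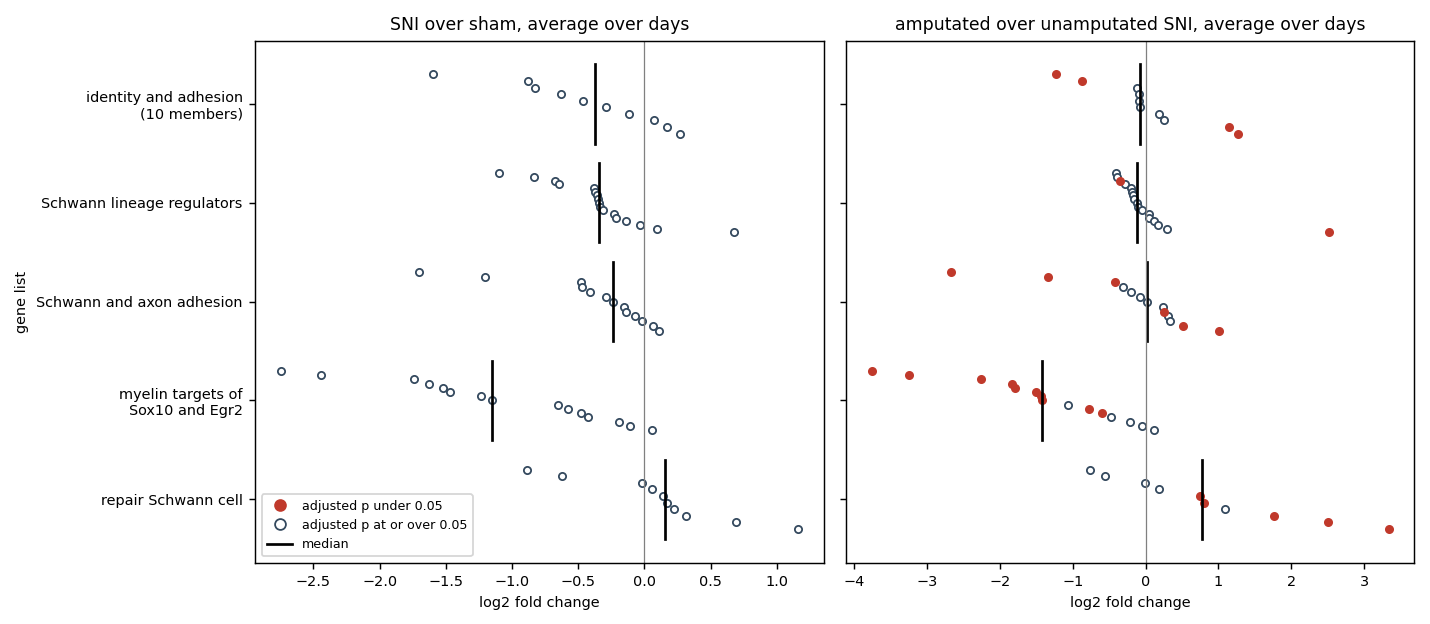
log2 fold change of each gene of 5 lists (x axis), in SNI over sham digits (left) and in amputated over unamputated SNI digits (right), averaged over days; filled points passed and bars mark list medians. On the left no point passed, and on the right 10 myelin genes fell, 5 repair genes rose and the 10 identity and adhesion genes split into 2 that rose, 2 that fell and 6 that held.

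Markers of other cells moved with amputation too, in a contrast where 5.71% of all genes rose and 6.08% fell. The 6 differentiated keratinocyte markers summed to 40146 to 51864 CPM in amputated and 56696 to 72135 CPM in unamputated digits, with 3 of 6 genes falling. The 8 sweat gland markers summed to 136 to 186 CPM and 196 to 229 CPM, and neither list overlapped between the arms. Of the sweat gland genes 3 fell (Aqp5, Krt7 and Foxi1) and 1 rose (Krt19). The 4 osteoblast markers summed to 69.3 to 290 CPM in amputated and 29.9 to 85.5 CPM in unamputated digits, with overlap, and 2 of them rose, Ibsp by 1.77 and Dmp1 by 1.67 on the log2 scale. The 6 melanocyte markers summed to 7.34 to 15.1 CPM and 10.5 to 13.5 CPM, and the 6 Schwann cell markers, which include Sox10 and Cdh19, to 156 to 252 CPM and 242 to 316 CPM. No gene of these 5 lists was at 0 in any library of the table. The part of these cells in the 4 called genes was not tested.

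The SNI libraries of the time course and the amputated SNI libraries of the second table carry the same treatment and days, but their tables were normalized apart and no test was made between them. At days 7 and 14 Sox10 was at 0.700 to 7.55 CPM in the former, and at 9.67 to 13.7 CPM in the latter. Cdh19 was at 2.04 to 4.61 CPM and 6.89 to 12.1 CPM, and L1cam at 4.08 to 24.6 CPM and 28.3 to 47.7 CPM. Sorcs1 was at 0.152 to 0.675 CPM and 0.301 to 1.25 CPM, S100b at 9.37 to 13.8 CPM and 7.60 to 11.4 CPM, and these ranges overlapped.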

How the data were processed

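RNA-seq libraries were made from 500 ng of total RNA per sample after poly(A) selection with a strand-specific kit, per the labels' protocols. The values are raw counts of each gene in each library, as the authors deposited them. Build GRCm39 is named in the submitters' processing notes. For the aligner, the counter and the annotation nothing is given in the sources used here. The identifiers of the second table were matched to symbols by GENCODE M21 (55141, 99.4%). The lengths behind CPM per kb came from its merged exons.

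Each table was fitted alone with 1 mean per group: filterByExpr (minimum count 10, minimum total 15; 16084 and 17475 genes kept), TMM and edgeR's robust quasi-likelihood test, with Benjamini-Hochberg adjustment over all genes of the table. The common biological coefficient of variation was 0.393 in the time course and 0.17 in the second table. Intervals are 95% intervals of the fit. The 10 genes and all lists were chosen with earlier results of these data known. From each list up to 3 genes with the smallest p were named. The genes most like Sox10 were the 5 with the highest rho among those of at least 1 CPM. No 2 libraries of a group agreed within sampling noise (lowest chi-square per degree of freedom 12.4). P values weigh a difference between groups against the spread between these libraries.

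Alternatives were RLE size factors, no filter, DESeq2, limma voom with sample quality weights, the compared groups alone, the replicate number as a block, each library left out, and the time course without both libraries of TMM factor under 0.8. The average over days 7 and 14 only was added after seeing the data. Versions were DESeq2 1.42.0, edgeR 4.0.16, limma 3.58.1 and R 4.3.3.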

Additional observations from a re-analysis of the deposited data

How the results depend on the processing

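Under RLE size factors and no filter, every count of called members and every named fold change kept its direction and its side of the threshold. With DESeq2, 1 member was called in the SNI average and 1 in amputated SNI day 14 against day 7. Limma voom with quality weights called 6 members at SNI day 7 and 7 at day 14, among 7749 and 8737 genes of all, where edgeR called 0. DESeq2 called 163, 54, 67 and 12 genes in the SNI average and at days 7, 14 and 21. In the amputated average 2060 genes were called, 3080 with DESeq2, 3188 with voom and 1114 with a replicate block. At day 14 these were 481, 1878, 2212 and 56, and at day 7 they were 236, 727, 371 and 115, with 57 from the compared groups alone, where 1 member passed. The cause was not tested.

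With replicate number as a block, members called at amputated against unamputated day 14 went to 1, and the log2 ratio of L1cam to Sox10 to 0.0366. Whether the numbers pair the samples was not settled. Deviations of same-numbered libraries correlated from -0.787 to 0.387 over 8 pairs in the time course (5 over 0.1) and from -0.203 to 0.022 over 6 in the second table. In the time course the pairs ran from -0.0933 to 0.387 at days 7 and 14, with -0.787 and -0.243 at day 21. With 2 sham libraries at day 21, their deviations mirror each other and cannot show pairing. Of the libraries, 7 of 17 and 0 of 12 correlated best with their own number. The labels name no shared litter or day.

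Without both libraries of low TMM factor, S100b in sham day 21 against day 7 was at -0.0196, the ratio of Mbp to Sox10 at 0.026, of Egr2 at 0.82 and of Pou3f1 at 0.86. Over days 7 and 14 only, Foxd3 was at -0.41 and Cdh19 at -0.16.

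Leaving out 1 library at a time, members called ran from 0 to 4 at amputated against unamputated day 14, and genes called in all from 31 to 995. The counts for sham day 21 against day 7, for the difference of the SNI effect between days and for SNI at day 21 rose only without sham day 21 replicate 2. That fit leaves 1 sham library at day 21. The average fold change of SNI over sham ran from -1.13 to 0.26 for Sox10, -1.25 to 0.0943 for L1cam, -0.31 to 0.24 for Pou3f1, -0.39 to -0.14 for Egr2, -1.81 to -1.03 for Sorcs1, -0.94 to -0.41 for Ncam1, -0.55 to -0.33 for Scn7a, 0.07 to 0.67 for Cdh19, -0.0836 to 0.98 for Foxd3 and -0.12 to 0.40 for S100b, and in sham day 21 against day 7 S100b ran from -0.0196, without sham day 21 replicate 1, to 1.49. The ratios to Sox10 ran from -0.0576 to 1.04 for Egr2, -1.003 to 0.25 for Mbp, 0.30 to 1.11 for Pou3f1, -0.21 to 0.13 for L1cam and -0.42 to 0.58 for Ncam1. A lone library of a group was taken to vary as the other groups do. With 2 or 3 libraries a group and a coefficient of variation of 0.393, intervals in the time course were wide, and a gene that did not pass is not shown to be unchanged.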
